A study of Schmidtea mediterranea with 24 samples.

Results

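Tails of *yki(RNAi)* planarians were compared at 12 hours post amputation (hpa) and at 6 hpa, in 3 libraries of each time. These 6 of the 24 libraries of the series were taken by their column labels, with the 2 sequencing lanes of each library summed. All animals belonged to CIW4, a clonal asexual strain of *Schmidtea mediterranea*, a flatworm that can regenerate a whole body from a tail. They had been fed bacteria with double-stranded RNA 3 times, against *yki* in *yki(RNAi)* animals or against *gfp*, a gene the worm lacks, in *control(RNAi)* animals. The labels place irradiation with 60 Gy at 15 days after feeding, in every group, intact animals included, and amputation 24 h later. Tails at 12 hpa were therefore collected 36 h after irradiation and tails at 6 hpa 30 h after it, and the time since the cut and the time since irradiation cannot be told apart in any change given here. RNAi by feeding lowers a transcript in the whole body and not in a chosen cell type. Each tail library pooled 15 fragments. *control(RNAi)* tails at 12 and 6 hpa served for comparison, and *yki(RNAi)* tails at 24 hpa and intact animals for levels only.

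Yorkie is the transcriptional co-activator at the end of the Hippo kinase cascade, which holds it out of the nucleus, and it is best known in flies and mammals for promoting tissue growth. In planarians, any injury switches on a transcriptional wound response, with an early wave of transcription factors, stress genes and secreted signals followed by a later wave in which genes that set the body axes take part. Epidermal cells are replaced all the time from stem cells, the neoblasts, by way of early progenitors that express *prog-1* and *prog-2* family genes. Irradiation kills the stem cells, which are the only dividing cells of the animal, and the short-lived progenitors that come from them then run out in order of their age.

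The 6 libraries held 23.1, 20.6 and 20.7 M counts at 12 hpa and 19.8, 20.1 and 20.6 M at 6 hpa (replicates A, B and C), in a series that ranged from 11.02 to 23.6 M. The target transcript *yki* was measured at 17.2, 16.9 and 16.2 CPM, counts scaled to the library total, at 12 hpa, and at 14.2, 12.5 and 14.2 CPM at 6 hpa, against 99.2 to 107 and 88.7 to 91.2 CPM in *control(RNAi)* tails. The low level matches the labels in all 6 libraries. Its log2 fold change between the times was 0.34 (SE 0.082, adjusted p = 0.022), a rise called under 6 of 13 alternative settings and lost without any 1 of the 12 hpa libraries or 6 hpa replicate B. The eye gene *ovo* reached at most 0.0926 CPM in the tails at 12 hpa and 0.0524 CPM at 6 hpa, against 0.269 to 0.411 CPM in intact *yki(RNAi)* animals, levels of a few counts. A *mucin* of secretory cells was at 0.183 to 0.463 CPM at 12 hpa and 0.419 to 1.99 CPM at 6 hpa, against 14.5 to 30.1 CPM in the same intact animals. Replicate B at 6 hpa stood apart in its level of transcripts of intact animals. Over 41 transcripts that were near absent from most tail libraries, its summed level was 10.9% of that of intact animals, while the other 5 libraries were at 0.437% to 2.69%. Of these 41 transcripts 6 could be tested, and edgeR and DESeq2 each called 0 of them, with 2 lower at an unadjusted p under 0.05. By chi-square per transcript, a measure of how far 2 replicates disagree, it was replicate C that differed most at 6 hpa. It stood at 11.5 against A and 7.69 against B, while A and B gave 5.09.

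Between 6 and 12 hpa, 1452 of 27675 tested transcripts were higher at 12 hpa (5.25%) and 938 were lower (3.39%), 8.64% in either direction, where a call needed an adjusted p under 0.05 from edgeR's quasi-likelihood test and a level at one time at least 25% above that at the other. A fold of at least 2 was passed by 513 rises and 115 falls. The falls were the more abundant transcripts, with a median of 18.8 CPM, against 4.02 CPM for the rises. Of the 206 transcripts with a gene name that were tested, 13 rose and 28 fell. The counts depended on single libraries. They came to 319 rises and 248 falls without 12 hpa replicate B, 444 and 343 without replicate C, 711 and 491 without 6 hpa replicate A, 740 and 583 without replicate B, and 2103 and 1526 without replicate C. Of the 319 rises and 248 falls that were left without 12 hpa replicate B, 314 and 245 were among those of the full comparison. DESeq2 called 705 rises and 836 falls.

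**Figure D1:**
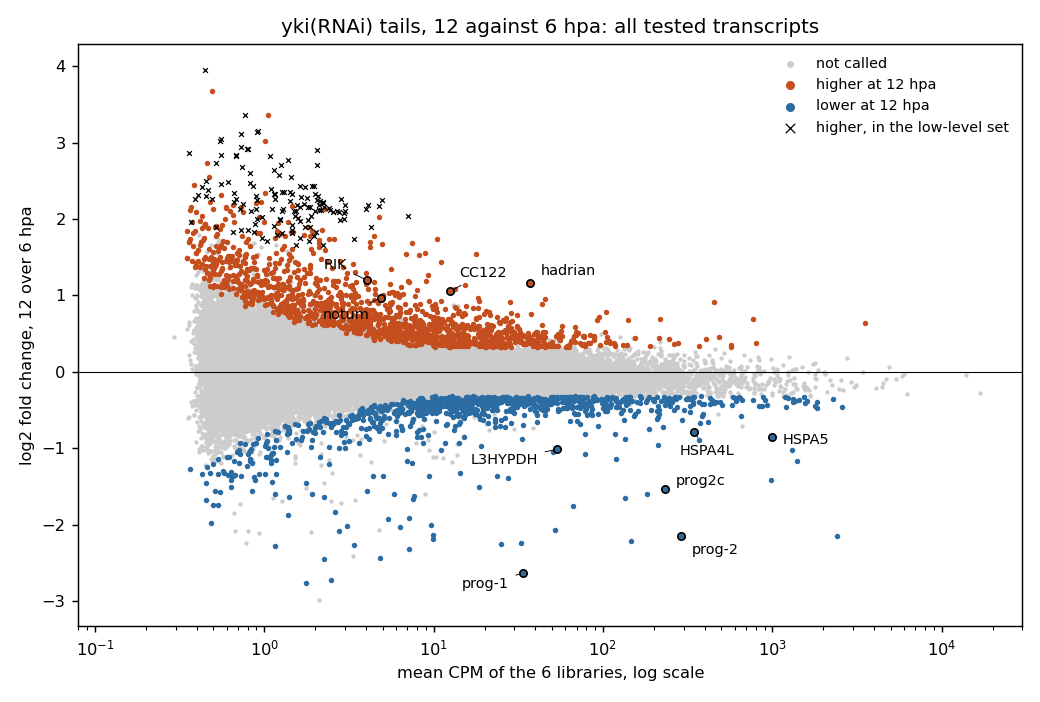
Log2 fold change of each tested transcript in *yki(RNAi)* tails, 12 over 6 hpa, against its mean CPM over the 6 libraries (log axis); orange points are the called rises, blue points the called falls, and crosses the rises of a set of low-level transcripts described in the text. The falls lie further to the right (median 18.8 CPM) than the rises (median 4.02 CPM), and the crosses fill the upper left.

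The strongest named change was the loss of early epidermal progenitor transcripts. Of 20 transcripts of the epidermal lineage that were listed by name, all were tested and 12 fell (60%, against 3.39% of all tested transcripts). By edgeR 0 rose, with also 0 rises at an unadjusted p under 0.05 and 0 by DESeq2. All but *vim-1* and *chd4* belong to the *prog-1* and *prog-2* families. *AGAT-1*, the study's marker of late progenitors, was not among the 20. The median log2 fold change of the 20 was -0.73, against 0.0020 over all tested transcripts. *Prog-1* (SmedASXL_011484), a marker of early progenitors, had 9.08, 9.87 and 8.47 CPM at 12 hpa, against 58.5, 65.1 and 51.4 CPM at 6 hpa. The libraries of the 2 times lay far apart, and the 12 hpa level was 9.14 ± 0.698 CPM against 58.3 ± 6.88 CPM (SD, n = 3 each), a 6.22-fold fall (log2 fold change -2.64, SE 0.097, adjusted p = 2.57e-08). *Prog-2* (SmedASXL_073532), the second classical marker of these cells, had 114, 104 and 93.7 CPM at 12 hpa, against 404, 575 and 435 CPM at 6 hpa. It fell 4.43-fold (log2 -2.15, SE 0.116, adjusted p = 7.87e-07), also with no overlap.

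**Figure D2:**
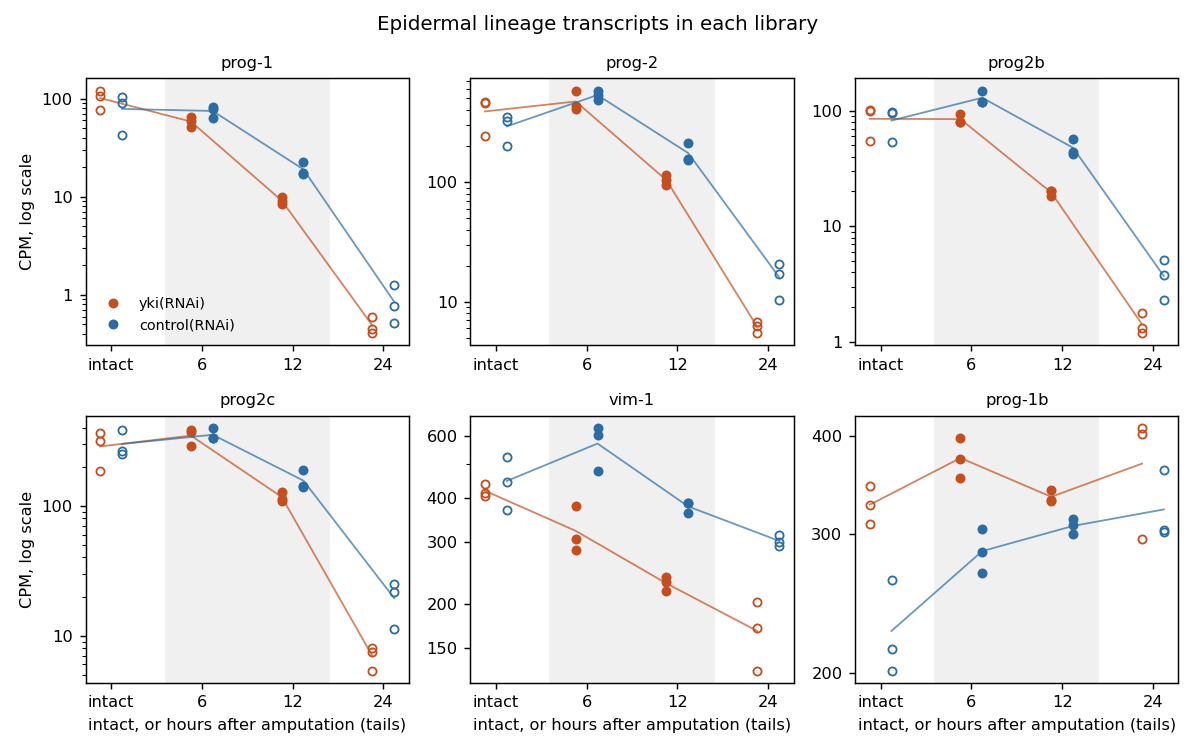
CPM (log axis) of 6 epidermal lineage transcripts in each library, one panel per transcript, for tails at 6, 12 and 24 hpa with intact animals before them; points are libraries, lines join group means, and the shaded band marks the 2 times compared. *Prog-1*, *prog-2*, *prog2b* and *prog2c* drop steeply between 6 and 12 hpa (*prog-1* to 9.14 CPM at 12 hpa, against 58.3 CPM at 6 hpa), *vim-1* less, and *prog-1b* stays near 334 to 375 CPM.

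The family did not move as one. Besides *prog-1* and *prog-2*, 7 relatives fell by at least 1.53 on the log2 scale, namely *prog1a* (-2.25), *prog-2a* (-2.22), *prog1c* (-2.08), *prog2b* (-2.07), *prog2e* (-1.75), *prog2d* (-1.65) and *prog2c* (-1.53). All 9 were called under each of the 13 alternative settings. A second group of relatives changed little or not at all. *Prog-1b* (SmedASXL_008207), one of the abundant ones, had 330, 341 and 332 CPM at 12 hpa, against 397, 373 and 353 CPM at 6 hpa. Its log2 fold change of -0.13 (adjusted p = 0.17) was not called, although its libraries did not overlap. *Prog-1j* gave 0.01, *prog-1d* -0.08, *prog1g* -0.20, *prog-1e* -0.20 and *prog-1i* -0.32, none of them called. *Prog-1h* and *prog-1f* fell by 0.42 and 0.34, calls that were lost without 12 hpa replicate B or C or 6 hpa replicate A, among others. *Prog2g*, at under 1 CPM, was not called at -1.01 (adjusted p = 0.0816). How reads shared by near-identical family members were assigned is not given in the sources used here, so a value of 1 *prog* transcript may include reads of another.

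*Vim-1* (SmedASXL_004180), an intermediate filament gene of the epidermal lineage, had 239, 217 and 230 CPM at 12 hpa, against 379, 284 and 305 CPM at 6 hpa. It fell by 0.46 on the log2 scale (adjusted p = 0.0092), a call lost without 12 hpa replicate B. *Chd4*, a chromatin remodeller needed to make these cells, differed by -0.19, under the fold minimum.

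The levels of *prog-1* and *prog-2* and the sum over the list were lower again at 24 hpa. This did not hold for every relative, and *prog-1b*, *prog-1e* and *prog-1i* averaged no lower at 24 than at 12 hpa. *Prog-1* averaged 101 ± 23.1 CPM in intact *yki(RNAi)* animals and 0.486 ± 0.0992 CPM in tails at 24 hpa, and *prog-2* averaged 389 ± 126 CPM and 6.19 ± 0.678 CPM (SD, n = 3 each). The summed level of the 20 epidermal transcripts was 2630 to 3400 CPM in intact *yki(RNAi)* animals, 3239 to 3538 CPM at 6 hpa, 1866 to 1939 CPM at 12 hpa and 1463 to 1499 CPM at 24 hpa. Of the 20 transcripts, 11 fell in *control(RNAi)* tails between 6 and 12 hpa, with a median log2 fold change of -0.57. *Prog-1* changed there by -1.95 (SE 0.119) and *prog-2* by -1.59 (SE 0.119). The difference in change between *yki(RNAi)* and *control(RNAi)* tails was -0.69 for *prog-1* (adjusted p = 0.184), -0.57 for *prog-2* (adjusted p = 0.286) and -0.66 for *prog2b* (adjusted p = 0.168), none of which passed the test. Those of *prog-1* and *prog2b* were called under 3 of 16 alternatives each, namely by DESeq2, with no filter on low counts and without *control(RNAi)* 6 hpa replicate C. In bulk tissue, fewer cells of a type and less RNA per cell cannot be told apart.

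None of the stem cell transcripts tested was called. *Smedwi-2* (SmedASXL_018810), a PIWI family gene of planarian stem cells, had 269, 272 and 266 CPM at 12 hpa, against 321, 323 and 318 CPM at 6 hpa. The groups were clearly separated, yet the log2 fold change of -0.22 (SE 0.051, adjusted p = 0.019) stayed under the fold minimum. *Smedwi-1*, *Smedwi-3* and *bruli* gave -0.31, -0.10 and -0.12. The replication genes *PCNA* and *mcm2* lay under 1.1 CPM at both times and gave -0.95 (adjusted p = 0.0554) and -1.21 (adjusted p = 0.0532). Of 7 stem cell transcripts 6 were tested and 0 were called by edgeR or by DESeq2, with 4 lower at an unadjusted p under 0.05. All 6 were lower at 12 hpa with no overlap between the libraries, as 19.6% of all tested transcripts were. The summed level of all 7 was 464 to 481 CPM at 12 hpa and 544 to 549 CPM at 6 hpa. Nearly all of this sum came from *Smedwi-2* and *Smedwi-3*, the latter with means of 190 CPM at 12 hpa and 208 CPM at 6 hpa. *Smedwi-1* averaged only 3.48 CPM at 12 hpa and 4.42 CPM at 6 hpa. Neither of 2 *porcupine* transcripts of the gut was called (0 at an unadjusted p under 0.05 and 0 by DESeq2), and their sums were 830 to 845 CPM at 12 hpa and 853 to 892 CPM at 6 hpa.

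Chaperones of the early wound response declined. *HSPA5* (SmedASXL_018703), whose product is the main Hsp70 chaperone of the endoplasmic reticulum, had 704, 686 and 697 CPM at 12 hpa, against 1303, 1111 and 1440 CPM at 6 hpa. It fell 1.8-fold (log2 -0.85, SE 0.079, adjusted p = 0.000118). *HSPA4L* (SmedASXL_009745), an Hsp110-type co-chaperone of Hsp70, had 264, 258 and 226 CPM at 12 hpa, against 483, 425 and 414 CPM at 6 hpa, a change of -0.78 (SE 0.074, adjusted p = 0.00013). *BAG3* (SmedASXL_007924), an Hsp70 partner in protein clearance, had 27.3, 23.6 and 18.8 CPM at 12 hpa, against 49.7, 43.9 and 37.7 CPM at 6 hpa, a change of -0.88 (SE 0.122, adjusted p = 0.00231). For none of the 3 did the libraries overlap, and all 3 were called under each alternative. They also fell in *control(RNAi)* tails, by 0.61, 1.06 and 1.03. They were the only calls among 9 tested members of a stress and signalling list (33.3%, against 8.64% of all tested transcripts). That list was itself drawn from genes of an earlier wound study. Among its other members, *DUSP10*, *pim-1* and *tyrosine kinase-2* were not called. At 24 hpa *HSPA5*, *HSPA4L* and *BAG3* averaged 331 ± 15.0, 146 ± 9.72 and 19.3 ± 0.748 CPM (SD, n = 3 each).

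Among 15 metabolic enzymes and transporters, all tested, 4 fell and 0 rose (also 0 at an unadjusted p under 0.05 and 0 by DESeq2). These 4 are 26.7% of the list, and 3.39% of all tested transcripts were called lower. Every member of the list came from the wound gene lists described below, so this share is not that of metabolic genes at large. *L3HYPDH* (SmedASXL_019387), which matches a hydroxyproline dehydratase, had 37.4, 35.3 and 32.1 CPM at 12 hpa, against 89.1, 69.2 and 59.3 CPM at 6 hpa. It fell 2.02-fold (log2 -1.01, SE 0.118, adjusted p = 0.000759) with every library at 12 hpa under every library at 6 hpa. *PHYHD1*, a relative of phytanoyl-CoA hydroxylases, fell by 0.62, *PANK4*, of the pantothenate kinase family, by 0.50, and *ALAD*, an enzyme of haem synthesis, by 0.35. The *ALAD* call was lost without 12 hpa replicate A or B or 6 hpa replicate A, and that of *PHYHD1* with all 24 libraries in 1 fit. *IMDH2*, which matches the rate-limiting enzyme of guanine nucleotide synthesis, gave -0.07, and *ODBA*, which matches a subunit of the branched-chain keto acid dehydrogenase, gave -0.03 with 94.1, 92.2 and 88.7 CPM at 12 hpa and 98.0, 90.5 and 98.7 CPM at 6 hpa. *ODBA* fell by 0.55 in *control(RNAi)* tails, and the difference between the 2 changes was 0.52 (adjusted p = 0.0747), which did not pass. It was called under 4 of 16 alternatives, namely by DESeq2, with no filter on low counts, without *control(RNAi)* 6 hpa replicate C and without *yki(RNAi)* 6 hpa replicate C.

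Of 6 genes for extracellular matrix and secreted proteins, 3 rose and 1 fell (66.7% called, against 8.64% of all tested transcripts). All 6 came from the wound gene lists described below, so this share is not that of matrix genes at large. *Collagen-alpha-5* came from a list chosen on the samples of this study, so its direction is not independent evidence. *Collagen-alpha-5* (SmedASXL_072110), a collagen chain, had 5.16, 6.03 and 6.02 CPM at 12 hpa, against 3.67, 2.89 and 3.85 CPM at 6 hpa, a rise of 0.76 on the log2 scale (SE 0.146, adjusted p = 0.00867). *ADAMTS-1* (SmedASXL_016087), a secreted metalloprotease that cuts matrix proteoglycans, had 88.9, 90.9 and 88.4 CPM at 12 hpa, against 60.4, 60.0 and 77.9 CPM at 6 hpa (log2 0.47, SE 0.088, adjusted p = 0.00739). *Sbspon* (SmedASXL_009412), a somatomedin B and thrombospondin domain protein, had 63.4, 61.8 and 58.3 CPM at 12 hpa, against 38.5, 53.3 and 44.0 CPM at 6 hpa (log2 0.47, SE 0.096, adjusted p = 0.0111). None of the 3 overlapped between the times. Without 12 hpa replicate B only *ADAMTS-1* was still called, and with all 24 libraries in 1 fit only *collagen-alpha-5*. *COL4A2* (SmedASXL_018147), a basement membrane collagen, went the other way, with 94.4, 81.8 and 81.5 CPM at 12 hpa, against 130, 132 and 102 CPM at 6 hpa. Its fall of 0.46 (SE 0.094, adjusted p = 0.011) was lost without 12 hpa replicate B or C. *ADAMTS-1* rose in *control(RNAi)* tails too, by 0.56, while *sbspon* gave -0.02 and *collagen-alpha-5* 0.25, neither called.

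**Figure D3:**
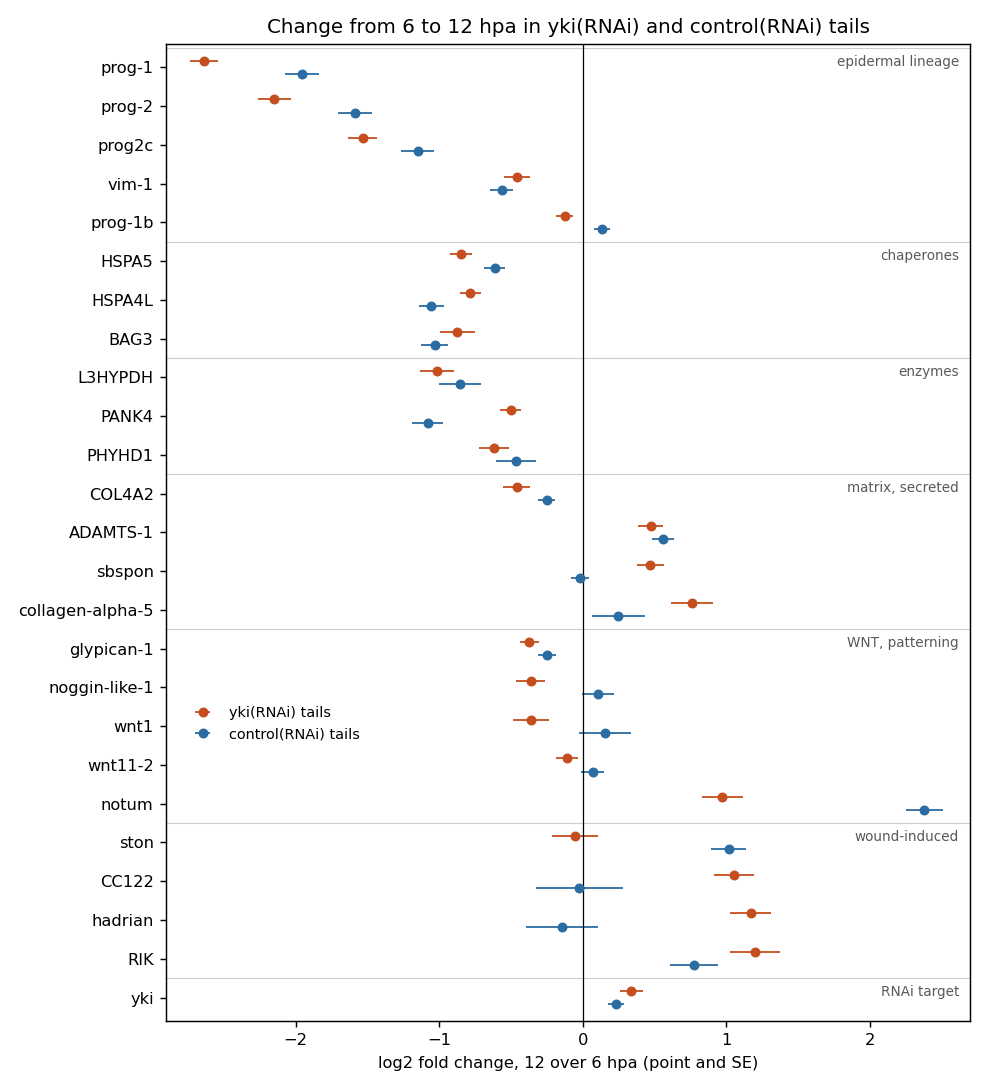
Log2 fold change, 12 over 6 hpa, of 25 named transcripts in *yki(RNAi)* tails and, under it, in *control(RNAi)* tails; points are edgeR estimates and bars 1 SE. *Prog-1* and *prog-2* lie furthest to the left in both, *hadrian* and *CC122* are raised in *yki(RNAi)* tails (1.17 and 1.05) and near 0 in *control(RNAi)* tails (-0.15 and -0.02), and *notum* is raised less in *yki(RNAi)* than in *control(RNAi)* tails (0.97 and 2.38). By edgeR's test of the difference in change, *notum* was called, and *hadrian* and *CC122* were not (adjusted p = 0.184 and 0.306).

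Of 97 genes known from an earlier wound study, 93 were tested, 8 rose and 14 fell, with a median log2 fold change of -0.07. The calls in either direction came to 23.7% of the list, against 8.64% of all tested transcripts. Without 12 hpa replicate B, 5 rose and 9 fell. Among *control(RNAi)* tails 8 rose and 22 fell. Of 438 transcripts that the study listed as induced by wounding in *control(RNAi)* tails, 417 were tested, 43 rose and 59 fell, with a median of -0.03, so that 24.5% of the list was called. The *control(RNAi)* counts were 113 and 28 with a median of 0.24, but that list was chosen on those libraries. Without 12 hpa replicate B, 22 of the 438 rose and 22 fell in *yki(RNAi)* tails, without replicate C 28 and 29, and without 6 hpa replicate A 33 fell. The counts over all tested transcripts dropped in the same fits. They were 319 rises and 248 falls without 12 hpa replicate B and 444 and 343 without replicate C. Without 6 hpa replicate A there were 491 falls.

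Of the epidermal members of the 97 genes, *hadrian* (SmedASXL_002439) rose, *SVOPL* (SmedASXL_011893) fell and *ston*, *jun-1* and a *TRAF* gene were not called. The calls came to 40% of these 5 genes, against 8.64% of all tested transcripts. *Hadrian* had 44.0, 45.7 and 62.6 CPM at 12 hpa, against 25.4, 18.1 and 26.0 CPM at 6 hpa. It was 2.25-fold higher (log2 1.17, SE 0.144, adjusted p = 0.0012), with all libraries at 12 hpa above those at 6 hpa. It averaged 16.3 ± 5.71 CPM in intact *yki(RNAi)* animals and 661 ± 415 CPM in tails at 24 hpa, a time at which its libraries were far apart (SD, n = 3 each). *SVOPL*, which matches a membrane transporter, had 6.19, 7.03 and 5.83 CPM at 12 hpa, against 12.5, 10.1 and 10.2 CPM at 6 hpa (log2 -0.745, SE 0.118, adjusted p = 0.00402). With all 24 libraries in 1 fit neither *hadrian* nor *SVOPL* was called. *Ston*, a wound gene of the epidermis, had 5.49, 5.30 and 7.36 CPM at 12 hpa and 7.54, 6.53 and 5.29 CPM at 6 hpa in *yki(RNAi)* tails, which overlap (log2 -0.06, adjusted p = 0.858). In *control(RNAi)* tails it had 25.6, 25.7 and 27.4 CPM at 12 hpa, against 11.2, 11.6 and 17.1 CPM at 6 hpa, a rise of 1.01. The difference between the changes of *ston* was -1.07 (SE 0.223, adjusted p = 0.101) and did not pass. The difference for *hadrian*, whose *control(RNAi)* log2 fold change was -0.15, was 1.30 (SE 0.335, adjusted p = 0.184) and did not pass either. With no filter on low counts or without *control(RNAi)* 6 hpa replicate C both differences were called, and DESeq2 called that of *ston*.

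Of 14 muscle members of the 97 genes, 4 fell (28.6%, against 3.39% of all tested transcripts) and 0 rose (2 higher at an unadjusted p under 0.05, and 0 by DESeq2). These were *COL4A2*, the BMP antagonist gene *noggin-like-1* (-0.36), and the unnamed SmedASXL_009408 (-0.47) and SmedASXL_015317 (-0.33). None of the 4 was called without 12 hpa replicate B or without replicate C, 2 were called without replicate A, and 1 without 6 hpa replicate A.

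Of 8 tested early response transcription factors 1 was called (12.5%, against 8.64% of all tested transcripts). *Fos-1* (SmedASXL_007106), the first marker of the early wave, had 124, 127 and 125 CPM at 12 hpa and 112, 117 and 135 CPM at 6 hpa (log2 0.08, adjusted p = 0.499). *Jun-1*, its partner in the AP-1 complex, had 41.8, 46.2 and 43.0 CPM at 12 hpa and 31.1, 33.7 and 43.2 CPM at 6 hpa (log2 0.32, adjusted p = 0.062). For both genes the libraries of the 2 times overlapped. *KLF13*, a Krüppel-like zinc finger factor, was that call, at 39.5, 35.6 and 18.9 CPM at 12 hpa and 22.2, 18.4 and 19.5 CPM at 6 hpa. Its libraries overlapped too, and the call held under 5 of 13 alternatives and was lost without 12 hpa replicate A or B or any 1 of the 6 hpa libraries.

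A further list holds 14 genes that wounding induces but that are not enriched in tails. Of these 13 were tested and 9 rose (69.2%, against 5.25% of all tested transcripts). None fell (also 0 at an unadjusted p under 0.05 and 0 by DESeq2), and the median log2 fold change was 0.76. These genes were chosen on the samples of this study as wound-induced and higher after *yki(RNAi)*, so their direction is not independent evidence. Among the 9 rises, SmedASXL_077487 averaged 0.536 CPM at 6 hpa and could pass the filter on low counts only through the 12 hpa libraries. The call of SmedASXL_077487 therefore supports no direction, and the share of 69.2% includes it. *CC122* (SmedASXL_007127) had 13.0, 19.1 and 18.4 CPM at 12 hpa, against 7.80, 7.72 and 9.39 CPM at 6 hpa, a 2.08-fold rise (log2 1.05, SE 0.142, adjusted p = 0.00183) that was not called with all 24 libraries in 1 fit. *RIK* (SmedASXL_008819) had 4.91, 5.94 and 6.02 CPM at 12 hpa, against 2.25, 2.04 and 3.21 CPM at 6 hpa (log2 1.20, SE 0.176, adjusted p = 0.00299). SmedASXL_061421, which has no gene name, had 16.3, 17.1 and 14.4 CPM at 12 hpa, against 4.5, 4.73 and 5.43 CPM at 6 hpa (log2 1.74, SE 0.110, adjusted p = 2.77e-06). In each of the 3 the times were fully separated. SmedASXL_061347 and SmedASXL_069276 rose by 1.01 and 1.84, and *F6QCP8* gave 0.15 and was not called. In *control(RNAi)* tails 3 of 13 rose, with a median of 0.07, and the test of the difference in change between the RNAi groups called 0 of the 13. *CC122* changed there by -0.02 with an SE of 0.304, and the difference between its changes of 1.07 did not pass (adjusted p = 0.306).

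**Figure D4:**
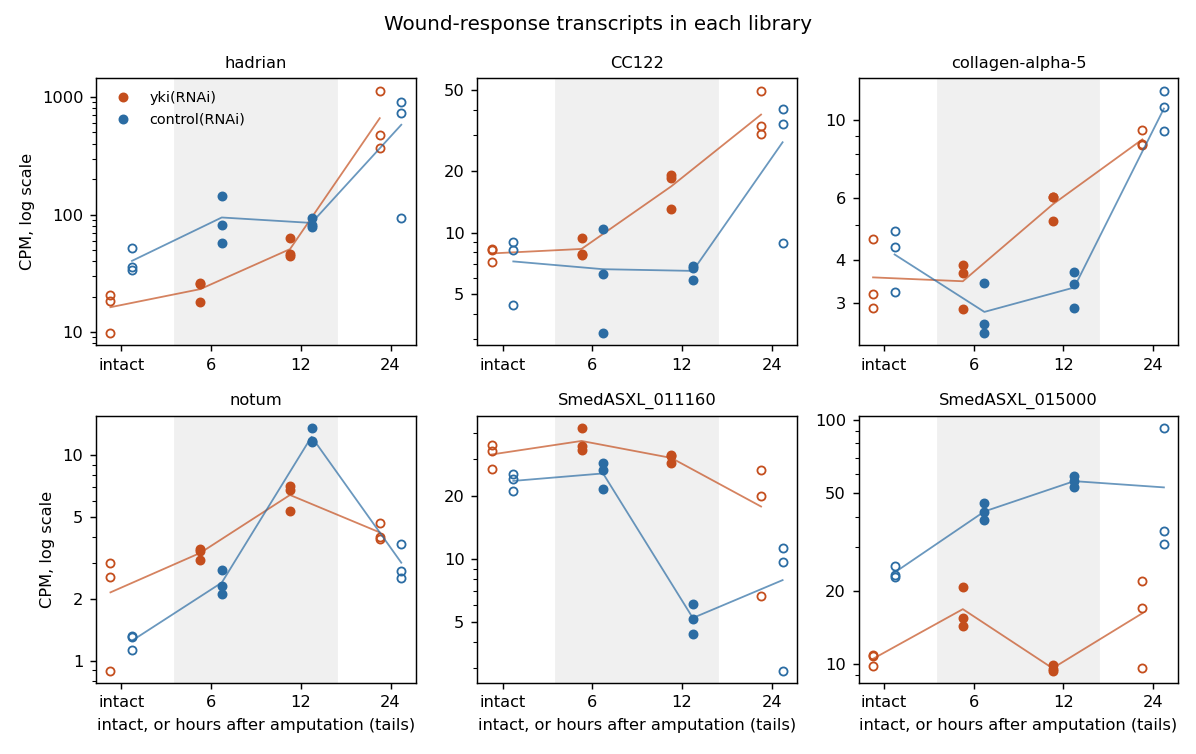
CPM (log axis) of 6 wound-response transcripts in each library, one panel per transcript, for tails at 6, 12 and 24 hpa with intact animals before them; points are libraries, lines join group means, and the shaded band marks the 2 times compared. *Hadrian* in *yki(RNAi)* tails was at 50.8 CPM at 12 hpa and 661 CPM at 24 hpa, and *notum* in *control(RNAi)* tails climbs past *yki(RNAi)* at 12 hpa. SmedASXL_011160 drops steeply between 6 and 12 hpa in *control(RNAi)* tails (-2.27), and by a smaller step that was not called in *yki(RNAi)* tails (-0.23).

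WNT signals instruct the tail end of the planarian body, and their antagonists the head end. Of 21 genes of the pathway 20 were tested, 1 rose and 2 fell (15% called, against 8.64% of all tested transcripts). The rise was *notum* (SmedASXL_009180), which encodes a secreted enzyme that inactivates WNT proteins and is induced at wounds that face forward. It had 6.81, 5.34 and 7.08 CPM at 12 hpa, against 3.51, 3.44 and 3.11 CPM at 6 hpa, a 1.96-fold rise with no overlap (log2 0.97, SE 0.145, adjusted p = 0.00301), called under every alternative. *Glypican-1* (SmedASXL_011490), a heparan sulphate proteoglycan that binds WNT proteins in other animals, fell by 0.37 (SE 0.065, adjusted p = 0.0062), with 63.3, 59.4 and 67.2 CPM at 12 hpa, against 87.2, 85.4 and 79.3 CPM at 6 hpa. *Sfrp2*, a secreted WNT antagonist, fell by 0.34, a call that held under 4 of 13 alternatives and was lost on leaving out any 1 of the 6 libraries. Among the ligands, *wnt1*, which wounds induce, had 3.92, 3.65 and 3.70 CPM at 12 hpa and 5.18, 4.83 and 4.84 CPM at 6 hpa. Its libraries did not overlap, but the log2 fold change of -0.36 missed the threshold (adjusted p = 0.0836). The posterior ligands *wnt11-1* and *wnt11-2* gave 0.14 and -0.11, the receptor gene *Fzd-d* -0.06, the WNT target gene *Sp5* -0.12 and *beta-catenin-like* 0.25, none of them called.

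Of 5 tested Hox and posterior genes 1 was called (20%, against 8.64% of all tested transcripts). *Post-2c*, *Post-2d*, *Hox4b* and *Hox7b* gave log2 fold changes of -0.28, 0.14, -0.07 and -0.05 and were not called. *NKX2.3-like* (SmedASXL_008877), a homeobox gene, had 15.7, 15.8 and 14.8 CPM at 12 hpa, against 26.6, 24.6 and 18.0 CPM at 6 hpa. Its fall of 0.54 (adjusted p = 0.0148) was lost without 12 hpa replicate B or C or 6 hpa replicate A or B. Of 6 tested TGF-beta, BMP and noggin genes 1 was called (16.7%, against 8.64% of all tested transcripts). This was *noggin-like-1*, called under 5 of 13 alternatives and not without any 1 of the 12 hpa libraries or 6 hpa replicate A or B. *Follistatin*, an activin antagonist, gave -0.29 with an adjusted p of 0.0266, under the fold minimum, and *inhibin-1* gave 0.34 (adjusted p = 0.173). Of 4 Notch pathway genes 0 were called by edgeR and 0 by DESeq2, and 1 was lower at an unadjusted p under 0.05. This was the ligand gene *delta*, with 32.6, 29.7 and 28.8 CPM at 12 hpa, against 39.2, 40.6 and 35.1 CPM at 6 hpa, which did not overlap (log2 -0.30, adjusted p = 0.0238, under the fold minimum). Of 18 tail-enriched genes of the study's list, also chosen on these samples, 2 rose and 1 fell, with a median of 0.07. These calls were 16.7% of that list, against 8.64% of all tested transcripts. The rises, *D6RI25* (0.45) and a *death domain containing* transcript (0.34), were both lost without 12 hpa replicate B.

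Of 7 tested genes of cilia 1 was called (14.3%, against 8.64% of all tested transcripts). The motor subunit gene *Kif3B* fell by 0.35 (adjusted p = 0.015), a call lost without 12 hpa replicate B or C or 6 hpa replicate A or B. The transport genes *IFT88* and *IFT172* gave -0.31 and -0.23, both under the fold minimum. *Apaf1*, the scaffold of the apoptosome that activates caspases, had 124, 131 and 137 CPM at 12 hpa, against 103, 99.5 and 115 CPM at 6 hpa. Its rise of 0.34 (SE 0.068, adjusted p = 0.00968) was lost without 12 hpa replicate B or C or 6 hpa replicate A or B. Of 3 FGF receptor-like genes of the *nou-darake* family 0 were called (0 at an unadjusted p under 0.05 and 0 by DESeq2).

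Without a gene name, the largest falls with at least 1 CPM on average and separated libraries were SmedASXL_003080 (-2.72), SmedASXL_001986 (-2.24), SmedASXL_013802 (-2.15) and SmedASXL_013084 (-2.03). SmedASXL_013802 was very abundant. It had 1003, 959 and 647 CPM at 12 hpa, against 3878, 4669 and 3322 CPM at 6 hpa, a 4.44-fold fall (SE 0.149, adjusted p = 5.91e-06). It averaged 2389 ± 1383 CPM in intact *yki(RNAi)* animals (SD, n = 3), so its level also varied without a cut, and in *control(RNAi)* tails it fell by 2.80. SmedASXL_003080 had 0.371, 0.502 and 1.06 CPM at 12 hpa, against 1.41, 7.62 and 3.95 CPM at 6 hpa, and 58.5 ± 4.86 CPM in intact *yki(RNAi)* animals (SD, n = 3). Its highest 6 hpa library was replicate B, the one with the raised level of transcripts of intact animals, and its call was lost without 12 hpa replicate B.

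Among unnamed transcripts with at least 1 CPM on average and libraries that did not overlap, the largest rises were SmedASXL_031961 (3.37), SmedASXL_069594 (3.02), SmedASXL_024967 (2.90) and SmedASXL_064584 (2.83). SmedASXL_031961 had 1.20, 1.69 and 2.92 CPM at 12 hpa, against 0.157, 0.0997 and 0.296 CPM at 6 hpa (SE 0.469, adjusted p = 0.00234). SmedASXL_031961 and SmedASXL_069594 averaged 0.184 and 0.218 CPM at 6 hpa and could pass the filter on low counts only through the 12 hpa libraries. Their calls therefore support no direction. SmedASXL_024967 and SmedASXL_064584 belong to a set of 258 low-level transcripts, none with a gene name, that was defined after the values were seen. It holds the transcripts with at least 1 CPM in *control(RNAi)* tails at 24 hpa replicate A and at least 5 times the level of replicates B and C there. Of the 144 members tested, 131 were called higher at 12 hpa, all at least 2-fold, and 0 lower (also 0 at an unadjusted p under 0.05 and 0 by DESeq2). A member low at 6 hpa could pass the filter on low counts only through the 12 hpa libraries, so these counts describe the set and support no direction. They made up 101 of the 128 rises of at least 4-fold. Their summed level in *yki(RNAi)* tails was 409, 442 and 293 CPM at 12 hpa, against 131, 3.84 and 137 CPM at 6 hpa. The sum in *control(RNAi)* tails was 1.60, 6.74 and 1.51 CPM at 12 hpa and 339, 1.29 and 1.55 CPM at 6 hpa, and it varied within other groups too, with 2044, 116 and 14.1 CPM in *control(RNAi)* tails at 24 hpa. The set thus varied between libraries of the same group under both RNAi treatments, although it was high in every *yki(RNAi)* tail library at 12 hpa. The source of these transcripts was not tested. DESeq2 called 3 members and gave no adjusted p to 211. In edgeR 39 were called without 12 hpa replicate B, 31 with *control(RNAi)* tails in the same fit and 0 with all 24 libraries in 1 fit. Leaving the set out left 1321 rises and 938 falls.

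**Figure D5:**
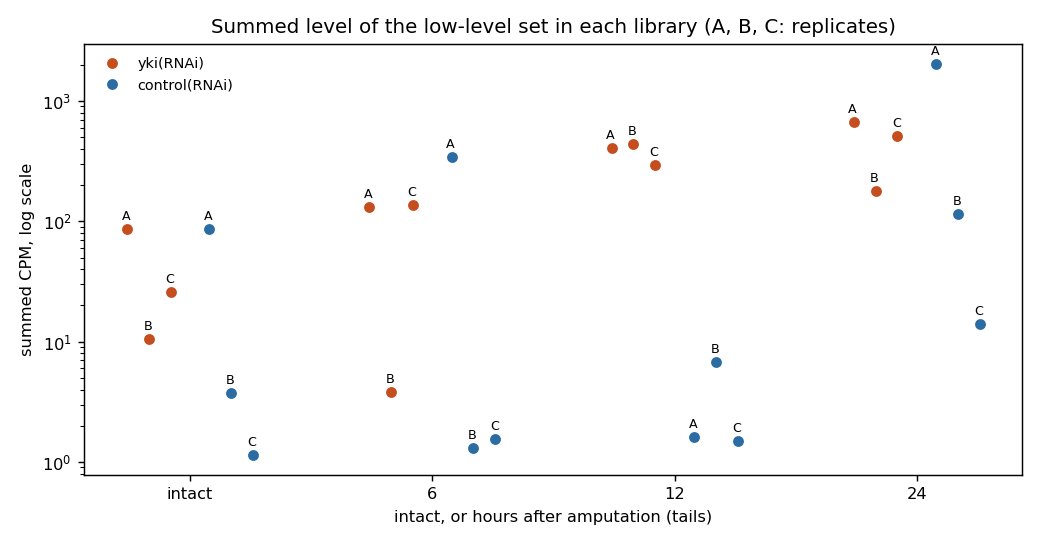
Summed CPM (log axis) of the 258 low-level transcripts in each library of the series, for tails at 6, 12 and 24 hpa with intact animals before them; each point is a library and its letter the replicate. *yki(RNAi)* tails at 12 hpa lie at 293 to 442 CPM, while libraries of the same group elsewhere differ widely, from 14.1 to 2044 CPM in *control(RNAi)* tails at 24 hpa.

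The change from 6 to 12 hpa was then set beside that of *control(RNAi)* tails, from libraries that the 2 comparisons do not share. In *control(RNAi)* tails 884 of 27345 tested transcripts rose (3.23%) and 940 fell (3.44%), 6.67% in either direction. Of the 1214 rises of *yki(RNAi)* tails that were tested there, 274 (22.6%) also rose and 4 fell. Of the 933 falls tested there, 346 (37.1%) also fell and 3 rose. The median log2 fold change in *control(RNAi)* tails was 0.34 over the *yki(RNAi)* rises and -0.32 over the falls.

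A direct test of the difference in change between *yki(RNAi)* and *control(RNAi)* tails, over 12 libraries and 30484 transcripts, called 3 (0.00984%), of which 1 was more positive and 2 more negative in *yki(RNAi)* tails. At an unadjusted p under 0.05 there were 2933 (9.62%). DESeq2 called 39 and 38, and without *control(RNAi)* 6 hpa replicate C edgeR called 308 and 266. It called 15 and 15 without *yki(RNAi)* 6 hpa replicate C, 1 and 4 without *yki(RNAi)* 12 hpa replicate A, and 3 and 3 without *control(RNAi)* 6 hpa replicate B. *Notum* was 1 of the 3 transcripts. Its *yki(RNAi)* rise of 0.97 stood beside a rise of 2.38 (SE 0.131) in *control(RNAi)* tails, where it had 11.8, 13.5 and 11.6 CPM at 12 hpa and 2.12, 2.31 and 2.78 CPM at 6 hpa. The difference was -1.41 (SE 0.199, adjusted p = 0.0187). It was no longer called, with adjusted p of up to 0.0901, without *yki(RNAi)* 6 hpa replicate A or B, *control(RNAi)* 12 hpa replicate B or *control(RNAi)* 6 hpa replicate A.

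The other 2 transcripts have no gene name. SmedASXL_011160, one of the 97 wound genes, had 30.9, 31.5 and 28.6 CPM at 12 hpa and 33.0, 34.6 and 42.1 CPM at 6 hpa in *yki(RNAi)* tails, a change of -0.23 that was not called (adjusted p = 0.104). In *control(RNAi)* tails it had 6.11, 5.18 and 4.39 CPM at 12 hpa, against 21.6, 28.7 and 26.4 CPM at 6 hpa, a fall of 2.27 (SE 0.139). The difference of 2.04 (SE 0.175, adjusted p = 4.52e-05) was called under all 16 alternatives. SmedASXL_015000, of the 438 wound-induced transcripts, had 9.53, 9.91 and 9.40 CPM at 12 hpa, against 20.6, 14.3 and 15.4 CPM at 6 hpa in *yki(RNAi)* tails, a fall of 0.76 (SE 0.122) that was not called with all 24 libraries in 1 fit. In *control(RNAi)* tails it rose by 0.44 (SE 0.068), with 53, 56.3 and 58.9 CPM at 12 hpa, against 38.9, 41.9 and 45.6 CPM at 6 hpa. The difference of -1.20 (SE 0.146, adjusted p = 0.00345) was also called under all 16 alternatives. In neither transcript did any *yki(RNAi)* library at 12 hpa lie within the range of the *control(RNAi)* libraries at that time. The same held at 6 hpa.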

How the data were processed

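Polyadenylated RNA was sequenced as single-end reads on 2 lanes. Reads were aligned by the authors with Bowtie2 2.2.4 to SmedASXL transcripts, and raw counts per transcript and lane were deposited for 82669 transcripts. The counting tool is not given in the sources used here. The authors' own fold changes and p-values were not used.

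Lanes of a library differed by no more than sampling noise (chi-square per degree of freedom 0.98 to 1.02) and were summed. A damaged lane column of *yki(RNAi)* intact replicate A (1 column) was not used, nor was the row without a transcript name (6.31% to 7.49% of counts). No 2 replicates of the 4 tail groups used agreed within sampling noise.

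Fits used only the 6 libraries of a comparison, in edgeR 4.0.16 under R 4.3.3 (TMM, filterByExpr with minimums of 10 counts and 15 in total, two-sided quasi-likelihood test, Benjamini-Hochberg), with SE taken from the F statistic. The difference between *yki(RNAi)* and *control(RNAi)* was fitted on 12 libraries with no fold minimum. CPM values use TMM factors over 24 libraries, and on that scale the median log2 ratio of 12 over 6 hpa was -0.035. The biological coefficient of variation was 8.27% in *yki(RNAi)* and 8.26% in *control(RNAi)* tails. The edgeR fit of *yki(RNAi)* tails was tested on simulated counts with known changes and the same spread in every library. The fit of the difference, that of *control(RNAi)* tails and DESeq2 were not tested in this way.

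Alternatives were DESeq2 1.42.0, its size factors, no filter, the first lane, fits of 12 and 24 libraries, other fold minimums, a block for the replicate letter and leaving out each library. Named genes were those the study names, up to 6 called members per list, up to 10 named and 4 unnamed transcripts each way (at least 1 CPM, no overlap) and those with the smallest p for the difference, with others where a list needed them. Comparison, lists and alternatives were chosen with earlier results of these data known. Names come from the count table and the study's tables, and those of enzymes are closest matches in other species. No names were found for muscle, pharynx and midline guidance lists, and the neuron and protonephridia markers were too low to test.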

Additional observations from a re-analysis of the deposited data

Results flagged for a closer look

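For 3 transcripts the change from 6 to 12 hpa differed between *yki(RNAi)* and *control(RNAi)* tails by edgeR's test of the difference itself. For *notum* the log2 change was 0.97 in *yki(RNAi)* tails and 2.38 in *control(RNAi)* tails, a difference of -1.408 (SE 0.199, adjusted p = 0.0187). For SmedASXL_011160 it was -0.23 and -2.27, a difference of 2.035 (SE 0.175, adjusted p = 4.52e-05). For SmedASXL_015000 it was -0.76 and 0.44, a difference of -1.204 (SE 0.146, adjusted p = 0.00345). In each of these the 3 libraries at 12 hpa of *yki(RNAi)* tails and those of *control(RNAi)* tails did not overlap. They did not overlap at 6 hpa either, so this separation does not by itself show a differing change.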

How the results depend on the processing

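The 1452 rises became 705 with DESeq2, 834 with all 24 libraries in 1 fit, 940 with the first lane only and 513 at a fold minimum of 2, and ranged from 319 to 2103 when 1 library was left out. The 938 falls became 115 at a fold minimum of 2 and 1569 with none, and ranged from 248 to 1526 when 1 library was left out. The transcripts with a more positive change in *yki(RNAi)* tails, 1 as reported, were 39 with DESeq2 and 358 with no filter on low counts, and 1 to 308 when 1 library was left out. Those with a more negative change, 2 as reported, were 38 with DESeq2 and 187 with no filter, and 1 to 266 when 1 library was left out. The cause of these shifts was not tested, except that the fold minimum changes the rule itself.

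Of 60 named or listed transcripts that were called, 30 were called under every one of up to 13 alternatives that gave them a value, 30 were lost under at least 1, and none changed direction. Counting only transcripts with a mean of at least 1 CPM, a choice made after seeing the data, left 1182 rises and 889 falls. Replicate letters are shared between the times, but deviations of libraries with the same letter correlated at 0.183, -0.099 and 0.142 for A, B and C, and 12 hpa replicate B correlated best with 6 hpa replicate A, so the letters were not taken as pairs. With a replicate block there were 1711 rises and 1066 falls, and 1 and 3 transcripts with a differing change. Transcripts under about 1 CPM rest on some 20 counts a library or fewer.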
